A study of Homo sapiens with 8 samples.

Results

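The human ribosomal RNA genes were described in the peak lists of PTBP1 and IGF2BP2 obtained by enhanced crosslinking and immunoprecipitation (eCLIP) in A172 cells, an established glioma line. A peak belonged to them when the deposited lists named its gene as an RNA18SN, RNA28SN, RNA45SN or RNA5-8SN copy or as LOC100507412, and 3140 of 1843422 peaks did. PTBP1 replicates 1 and 2 gave 858 of 600615 and 795 of 538802 peaks, and IGF2BP2 replicates 1 and 2 gave 767 of 362700 and 720 of 341305 peaks. The peaks were chosen by gene name, but the genes were selected on their positions and IP to input read ratios in these lists, so those ratios are given as a description with no test.

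The series holds 8 samples in 4 groups of 2, namely PTBP1 immunoprecipitates (IP), IGF2BP2 immunoprecipitates, PTBP1 inputs and IGF2BP2 inputs. All groups came from A172 cells grown with 4-thiouridine (500 µM, 3 h) and irradiated at 365 nm, with 2 doses of 400 mJ/cm2. After digestion with RNase I, each input was 2% of its lysate, and RNA was recovered from membrane at about 55 to 130 kDa for PTBP1 and 65 to 140 kDa for IGF2BP2. Each IP library has its own peak list, and the 4 inputs enter here only through the ratios in those lists. The labels do not tie the replicates to separate cultures, and the spread behind each p-value may be technical. Of 8 glioma and glial genes, EGFR, CD44, VIM and NES had 335, 101, 29 and 13 peaks in PTBP1 replicate 1 and 207, 85, 8 and 19 peaks in IGF2BP2 replicate 1, while GFAP, OLIG2 and PTPRZ1 had 1 to 5 peaks in each PTBP1 list and 0 to 11 in each IGF2BP2 list, and SOX2 had 0 in all. Peaks do not measure the level of a gene.

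Ribosomal RNA is made in the nucleolus by RNA polymerase I from tandem repeats on the short arms of several chromosomes. The long 45S precursor carries an external spacer (5′ ETS), the 18S RNA of the small subunit, a first internal spacer (ITS1), the 5.8S RNA, a second internal spacer (ITS2), the 28S RNA of the large subunit and a short 3′ ETS. The spacers are cut away and degraded while the mature RNAs enter ribosomes, and an intergenic spacer separates each 45S gene from the next. PTBP1 is a pyrimidine tract-binding regulator of splicing, and IGF2BP2 binds mature mRNAs in the cytoplasm. Because ribosomal RNA makes up most of a cell's RNA, its reads are a usual background of crosslinking experiments, and the ratio to the input is the quantity of interest.

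2 mature microRNAs of the array are shown because the peaks over their hairpins differed, as given below. The sequences are those of RefSeq (GRCh38.p14), with the seed, bases 2 to 8, in capitals. The mature hsa-miR-6724-5p is the same in every copy of its hairpin, whose copy MIR6724-1 lies 673 nt before the 45S start of RNA45SN2, and the positions given are those of MIR6724-4 (chr21:8432540-8432562, plus strand). The hairpin MIR3648-1 lies inside the 5′ ETS of RNA45SN2, and the sequence of its mature product is given from the copy MIR3648-2 (chr21:8987026-8987046, plus strand).
hsa-miR-6724-5p: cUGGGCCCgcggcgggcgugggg
hsa-miR-3648: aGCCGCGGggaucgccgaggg

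Read by coordinates, the peaks lay in several near-identical copies of the repeat, and the gene name of a peak did not tell which RNA it was. On chromosome 21 of GRCh38 the RefSeq table gives the 45S genes RNA45SN2 (chr21:8205988-8219302), RNA45SN3 (chr21:8389035-8402343) and RNA45SN1 (chr21:8433222-8446572), and the pseudogenes of a partial copy (chr21:8249505-8260930). On chromosome 21 lay 821 and 764 of the peaks of PTBP1, and 736 and 685 of those of IGF2BP2. The other peaks, 37 and 31 for PTBP1 and 31 and 35 for IGF2BP2, lay on scaffolds outside the assembled chromosomes. Of 277 and 262 PTBP1 peaks named RNA28SN5 on chromosome 21, 19 and 15 lay in a 28S gene, and of 251 and 241 IGF2BP2 peaks, 26 and 26 did. Peaks named LOC100507412, which RefSeq lists as a long non-coding RNA, lay in a 28S gene in 279 of 502 and 257 of 464 cases for PTBP1 and in 260 of 454 and 245 of 415 cases for IGF2BP2. The lists called 92.0% and 91.7% of the PTBP1 peaks and 92.7% and 92.2% of the IGF2BP2 peaks intronic. No peak carried an RNA18SN name, and only RNA45SN1 and RNA5-8SN1 appeared beside these 2 names. How reads were shared out between identical copies is not given in the sources used here, so values of single copies are uncertain, and parts of the repeat are described below by position.

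LOC100507412 carried 519 and 478 peaks in PTBP1 and 469 and 432 in IGF2BP2. RNA28SN5 carried 277 and 262 in PTBP1 and 251 and 241 in IGF2BP2. RNA45SN1, the name of a 45S precursor, carried 57 and 52 peaks in PTBP1 and 44 and 43 in IGF2BP2, and RNA5-8SN1 carried 5 and 3 in PTBP1 and 3 and 4 in IGF2BP2. For the first 3 genes both PTBP1 lists held more peaks than either IGF2BP2 list, but the PTBP1 lists were also longer. As a share of the list, the peaks of all 4 genes made up 0.143% (95% Wilson interval 0.134 to 0.153) and 0.148% (0.138 to 0.158) in PTBP1, against 0.211% (0.197 to 0.227) and 0.211% (0.196 to 0.227) in IGF2BP2. These intervals cover counting error only. The mean share was 0.145% ± 0.0033 in PTBP1 and 0.211% ± 0.00036 in IGF2BP2 (SD, n = 2 each), a difference of -0.07 percentage points, and both PTBP1 lists lay below both IGF2BP2 lists. A two-sided exact permutation test gave p = 0.333, the smallest that 2 libraries against 2 allow. Among the few peaks at 3 or more on both the centred log2 scale defined below and the −log10 p scale (13 and 6 in PTBP1, 1 and 0 in IGF2BP2), the difference was 0.04 percentage points, given with no test because the ratios chose these genes.

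Peak density per gene, log2 of the gene's peaks per 10000 peaks of the list, was fitted with limma over the 15145 genes that had 10 or more peaks in all lists together, and 25.0% of all genes differed between the proteins at an adjusted p under 0.05, with 12.3% lower in PTBP1. All 4 genes passed that minimum. LOC100507412 was lower in PTBP1 by a log2 difference of -0.55 ± 0.06 (SE, limma, Benjamini-Hochberg adjusted p = 0.0022), and so was RNA28SN5, by -0.56 ± 0.07 (adjusted p = 0.00356). RNA45SN1 (-0.37 ± 0.14, adjusted p = 0.0918) and RNA5-8SN1 (-0.55 ± 0.55, adjusted p = 0.491) did not pass. Measured by nucleotides covered in place of peaks, the differences were -1.27 for LOC100507412, -1.18 for RNA28SN5, -1.25 for RNA45SN1 (limma adjusted p = 0.00621) and -1.36 for RNA5-8SN1. The nucleotide scale divides by the nucleotides of the list, whose median peak was 40 and 38 nt in PTBP1 and 21 and 20 nt in IGF2BP2. The ribosomal peaks had medians of 11 and 12 nt in PTBP1 and 11 and 11 nt in IGF2BP2. They covered 13113 and 13094 nt in PTBP1, more than the 10300 and 10063 nt in IGF2BP2. Equal numbers of peaks in all lists would give -0.69 on the scale of peaks. Counted by peaks, each of the 4 genes lay above that value and below 0.

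Genes that make ribosomes were set beside them as a list of 47, of which 46 had enough peaks and POLR1H, a subunit of RNA polymerase I, with 8 peaks did not. In limma 2 of the 46 passed with a higher density in PTBP1 and 8 with a lower one, and 36 did not pass. Of all genes 25.0% passed, with 12.7% higher and 12.3% lower. Only the share called in either direction lay near the background. The share higher in PTBP1 lay below its background and the share lower in PTBP1 above it, a split that was not tested. The median log2 difference was -0.11 in the list and -0.01 over all genes tested. UTP14A, a component of the processome that assembles the small subunit, had 33 and 34 peaks in PTBP1 and 1 and 4 in IGF2BP2 (log2 difference 3.02, limma adjusted p = 0.0108). TAF1B, a subunit of the selectivity factor of RNA polymerase I, had 43 and 29 peaks in PTBP1 and 12 and 7 in IGF2BP2 (1.19, limma adjusted p = 0.0314). On the other side, NPM1, an abundant nucleolar phosphoprotein, had 15 and 15 peaks in PTBP1 and 29 and 23 in IGF2BP2 (-1.46, limma adjusted p = 0.00642). UTP6, also of the processome, had 25 and 27 peaks in PTBP1 and 49 and 31 in IGF2BP2 (-1.27, limma adjusted p = 0.0109). The remaining genes past the threshold were TAF1C, NOP58, WDR43, BOP1, RRP1 and RRP1B, all lower in PTBP1.

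The deposited column headed as a count holds a log2 ratio of IP to input reads, shifted by an amount that differs between chromosomes. The value that occurred most often on a chromosome, that of 3 IP reads to 1 input read, was subtracted, so that 0 stands for 3 IP reads per input read. The values were read as ratios of reads, with no scaling for the depth of a library, and the inputs as divisor are inferred from the values. Over 22 other chromosomes the commonest value had a median of 1.25 and 1.48 in PTBP1 and 3.30 and 3.47 in IGF2BP2. On chromosome 21 it was 3.94 and 4.14 in PTBP1 and 3.80 and 3.97 in IGF2BP2. Centring takes these amounts out, so orders between the proteins given below are those of unscaled ratios. Ribosomal RNA repeat peaks stood low on this centred log2 scale in every library. Their median was -3.21 and -3.49 in PTBP1, or 0.325 and 0.267 IP reads per input read, and -3.20 and -3.40 in IGF2BP2, or 0.327 and 0.283 IP reads per input read. The medians of the whole lists were -0.34 and -0.50 in PTBP1 and -1.0 and -1.10 in IGF2BP2. The median ribosomal peak thus lay at percentile 2.15 and 1.64 of the PTBP1 lists and at percentile 11.5 and 10.6 of the IGF2BP2 lists. Of the ribosomal peaks, 16.1% and 15.1% in PTBP1 and 10.6% and 9.05% in IGF2BP2 lay above the median of their own list.

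**Figure D1:**
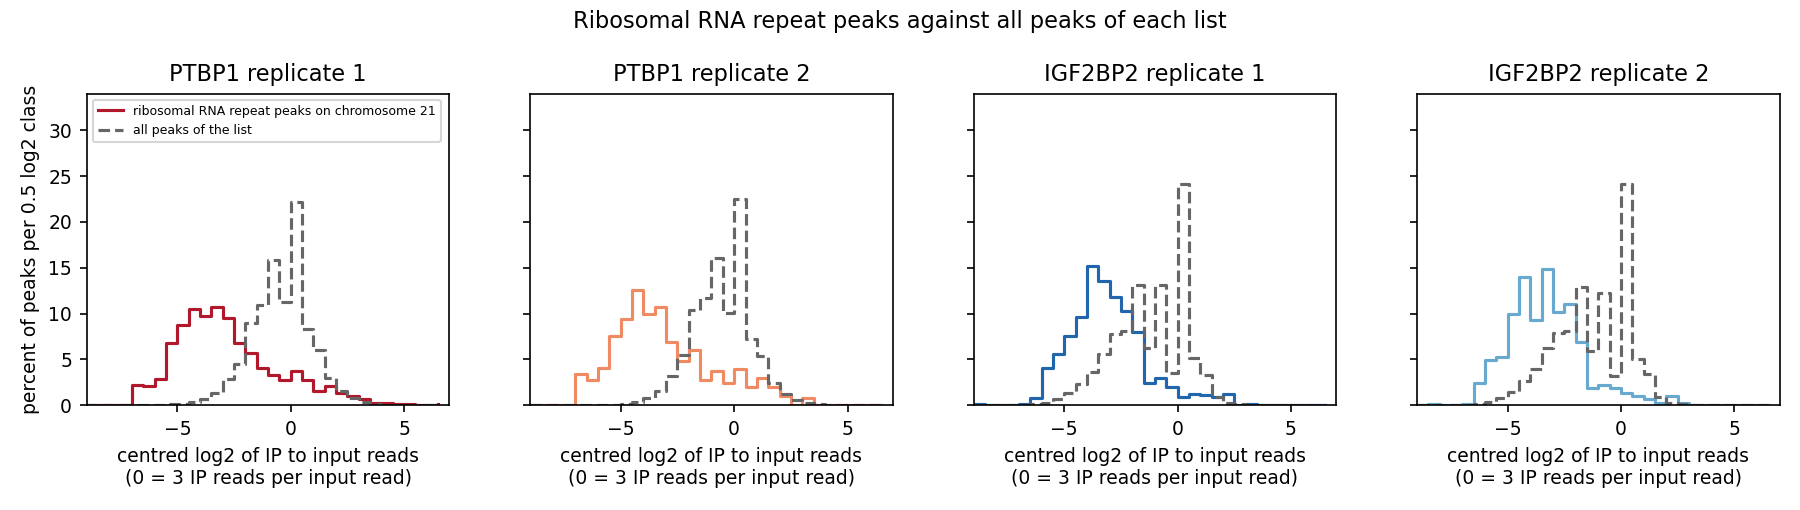
Percent of peaks in each class of 0.5 on the centred log2 scale of IP to input reads, for ribosomal RNA repeat peaks on chromosome 21 (solid) and all peaks of the list (dashed), with a panel for each library. The ribosomal peaks have medians of -3.21 and -3.49 in PTBP1 and -3.20 and -3.40 in IGF2BP2, left of the list medians of -0.34 and -0.50 and of -1.0 and -1.10.

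The low ratios rested on very many reads. The smallest whole numbers of IP and input reads that give each ratio were recovered for 98.2% and 98.4% of the ribosomal peaks in PTBP1 and 98.9% and 98.8% in IGF2BP2, and these are lower bounds of the true reads. The median was 12915.5 and 9560.5 IP reads in PTBP1 and 17964.5 and 15994 in IGF2BP2, against 7 and 6 and against 4 and 4 over the whole lists. The deepest ribosomal peaks had at least 411598 and 334481 IP reads in PTBP1 and 399975 and 348501 in IGF2BP2. Among peaks with at least 100 IP reads, the ribosomal median was -3.23 and -3.52 in PTBP1, where the other such peaks had -0.01 and -0.16. In IGF2BP2 it was -3.22 and -3.44, where the other such peaks had -1.47 and -1.63.

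The deposited −log10 p of these peaks sat at both ends of its range. It stood at its ceiling of 400 in 58.2% and 55.9% of the ribosomal peaks in PTBP1 and in 53.7% and 52.7% in IGF2BP2, against 0.382% and 0.326% and against 0.240% and 0.243% of the whole lists. It was 0 in 35.3% and 37.3% of the ribosomal peaks in PTBP1 and in 35.5% and 37.5% in IGF2BP2, against 25.2% and 22.3% and against 11.5% and 10.8% of the whole lists. No peak of a list lay between the ceiling and 285 and 182 in PTBP1 or 176 and 207 in IGF2BP2. The constant of chromosome 21 stood above the median of 22 other chromosomes (chromosome 14 left out) by 2.69 and 2.66 in PTBP1 and by 0.50 and 0.49 in IGF2BP2, and the deposited p moves with that constant. Of 139 plus-strand 18S peaks in PTBP1 replicate 1, 132 stood at the ceiling while the median of those 139 peaks was 0.831 IP reads per input read.

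The 18S and 5.8S RNAs had the highest medians of the transcribed repeat and ITS2 the lowest, in both proteins. The following medians are of plus-strand peaks in RNA45SN2 and RNA45SN3, the copies that held most peaks. In the 5′ ETS they were -4.22 and -4.41 in PTBP1 (174 and 172 peaks) and -3.88 and -4.16 in IGF2BP2 (190 and 185 peaks). In 18S they were -1.85 and -1.99 in PTBP1 (139 and 114 peaks) and -2.15 and -2.25 in IGF2BP2 (77 and 66 peaks). The 18S medians equal 0.831 and 0.756 IP reads per input read in PTBP1 and 0.674 and 0.630 in IGF2BP2, and each PTBP1 median lay above each IGF2BP2 median. The order was the opposite relative to the whole list, where the 18S medians stood at -1.51 and -1.49 from the list median in PTBP1 (percentile 12.4 and 12.6) and at -1.15 and -1.15 in IGF2BP2 (percentile 28.4 and 28.5), and in most stretches of 18S that both proteins covered, as given below.

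In ITS1 the medians were -2.84 and -3.24 in PTBP1 (17 and 11 peaks) and -3.48 and -3.70 in IGF2BP2 (23 and 24 peaks). In 5.8S they were -1.61 and -2.06 in PTBP1 (4 and 6 peaks) and -2.69 and -2.48 in IGF2BP2 (9 and 9 peaks). In ITS2, the spacer between 5.8S and 28S, they were -4.91 and -5.10 in PTBP1 (39 and 41 peaks) and -4.39 and -4.54 in IGF2BP2 (68 and 54 peaks). The drop between 5.8S and the neighbouring ITS2 was 3.30 and 3.04 in PTBP1 and 1.70 and 2.06 in IGF2BP2. In 28S the medians were -3.60 and -4.01 in PTBP1 (298 and 272 peaks) and -2.81 and -3.10 in IGF2BP2 (286 and 271 peaks). 18S exceeded 28S by 1.75 and 2.02 in PTBP1 and by 0.65 and 0.85 in IGF2BP2. The 3′ ETS held 3 and 2 peaks in PTBP1 (-2.22 and -2.51) and 1 and 1 in IGF2BP2 (-3.59 and -3.83).

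**Figure D2:**
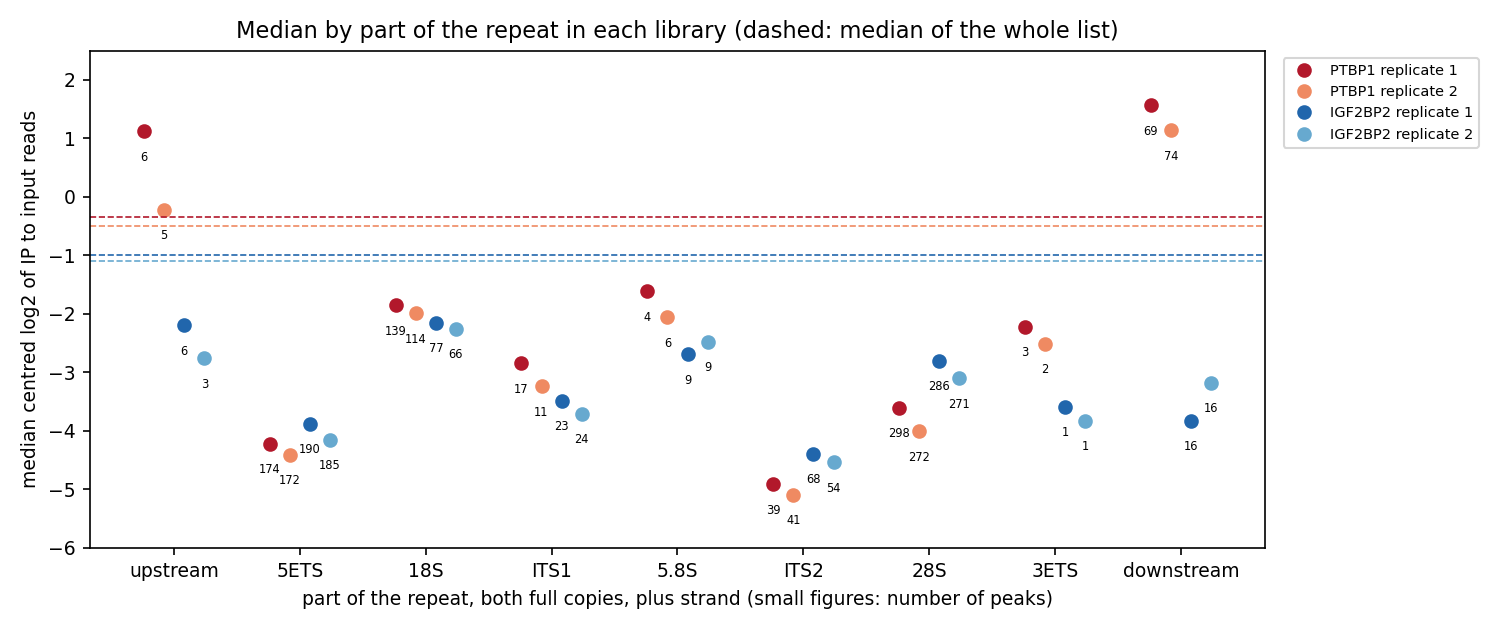
Median centred log2 of IP to input reads of plus-strand peaks in each part of the repeat, RNA45SN2 and RNA45SN3 together, with a point for each library and the number of peaks under it; dashed lines are the medians of the whole lists. PTBP1 has medians of 1.57 and 1.14 downstream of the 45S, where IGF2BP2 has -3.82 and -3.18, and ITS2 is the lowest transcribed part in all 4 libraries.

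The replicates followed each other closely along the repeat. The absolute difference between replicates at a nucleotide covered in both had a median of 0.20 in RNA45SN2 and 0.20 in RNA45SN3 for PTBP1, and of 0.19 and 0.20 for IGF2BP2. Between the proteins it had a median of 0.96 in RNA45SN2 and 0.73 in RNA45SN3. Of the ribosomal peaks, 96.4% (827 of 858) and 96.5% (767 of 795) in PTBP1 and 95.3% (731 of 767) and 96.8% (697 of 720) in IGF2BP2 were overlapped by a peak of the other replicate on the same strand, by 1 nt or more. These peaks were short, with medians of 11 and 12 nt in PTBP1 and 11 and 11 nt in IGF2BP2, and many abutted, so that 1 nt of overlap was easily met. No such share over the whole lists is given here. In lists of the other protein, 73.0% to 75.1% of the PTBP1 peaks and 80.7% to 82.2% of the IGF2BP2 peaks were met. Of these few peaks at 3 or more on both scales, 5 of 13 and 5 of 6 were met by such a peak of the other replicate in PTBP1, and 0 of 1 in IGF2BP2.

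**Figure D3:**
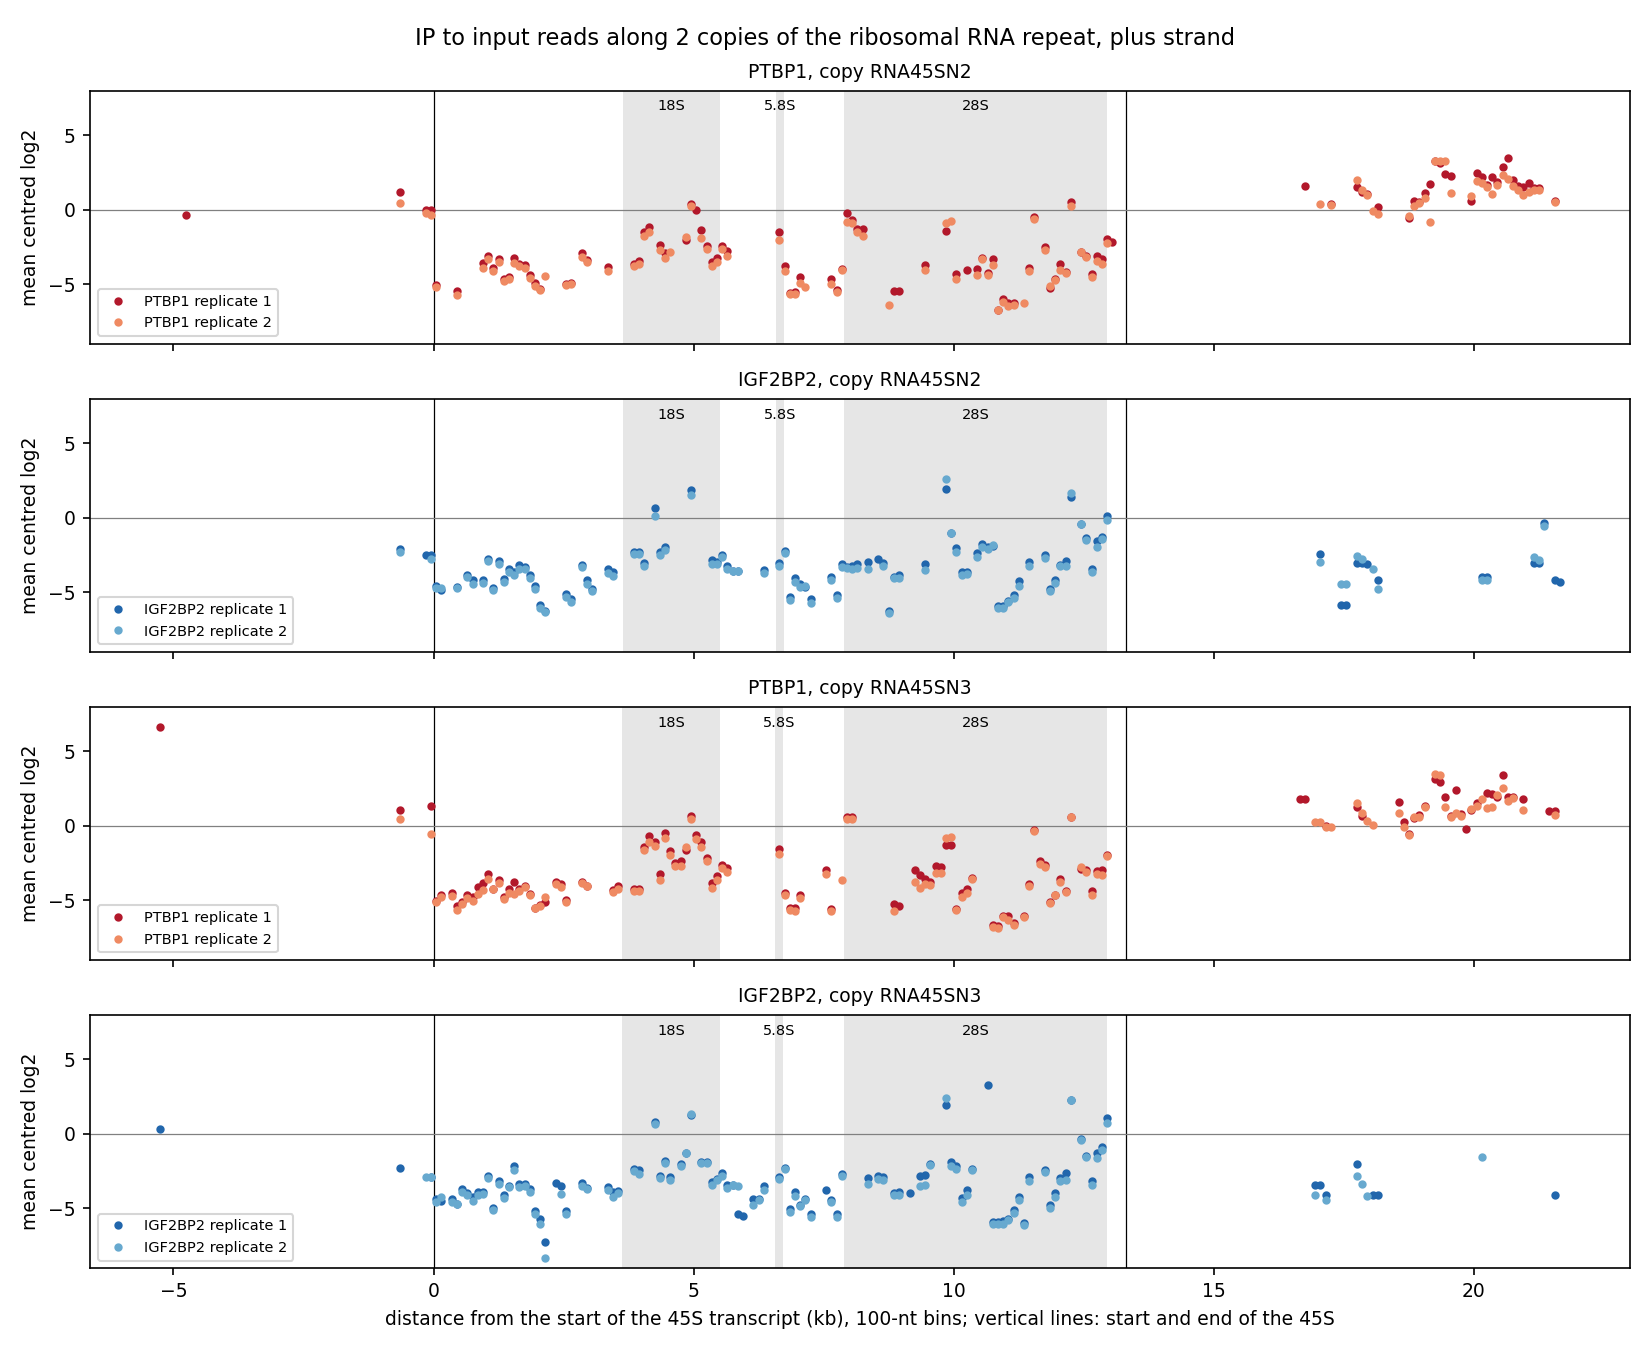
Mean centred log2 of IP to input reads in bins of 100 nt along RNA45SN2 and RNA45SN3, plus strand, against the distance from the 45S start in kb, with the mature RNAs shaded and a line at 0. Both replicates of a protein follow each other, and most PTBP1 points lie above 0 past the 45S end (peak medians 1.57 and 1.14), where the IGF2BP2 points lie below it (-3.82 and -3.18).

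Along the mature RNAs IGF2BP2 stood above PTBP1 in most stretches that both covered. In bins of 50 nt with at least 10 nt covered in every library, both IGF2BP2 replicates lay above both PTBP1 replicates in 15 of 19 bins of 18S and in 42 of 52 bins of 28S. PTBP1 lay above IGF2BP2 in 1 bin of 18S and 5 bins of 28S, and those of 28S all lay within positions 51 to 300. The median difference, PTBP1 minus IGF2BP2, was -0.74 in 18S and -1.03 in 28S, and it ran between -3.34 and 4.13 in 28S. Across the same bins the profiles of the 2 proteins rose and dipped together, with Pearson's r of 0.90 in 18S (19 bins) and 0.72 in 28S (52 bins). These are descriptions over bins of 1 RNA, which share base composition, the uniqueness of the sequence and, within a library, the depth. The ratios are not scaled for depth, so the order holds for unscaled ratios only. No such count of bins was made over other genes. Bins with less coverage are outside the count. Of these, some had PTBP1 peaks alone, as at positions 351 to 400, 801 to 900 and 1351 to 1500 of 18S and 3601 to 3700 of 28S. Others had IGF2BP2 peaks alone, as at positions 401 to 500 and 651 to 750 of 28S. Where both had peaks, the difference ran both ways, with 1.43 and 1.86 at positions 401 to 500 of 18S and -1.82 at 1651 to 1700 of 28S. Over the whole lists the order was the opposite of that in most counted bins, with medians of -0.34 and -0.50 in PTBP1 and -1.0 and -1.10 in IGF2BP2.

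Among the bins with at least 10 nt covered in every library, the 5′ end of 28S was the main place where PTBP1 exceeded IGF2BP2. At positions 51 to 100 PTBP1 had 0.23 and 0.15 and IGF2BP2 had -3.86 and -4.02. At positions 101 to 150 PTBP1 had -0.07 and -0.24 and IGF2BP2 had -3.58 and -3.74. The PTBP1 values fell off gradually over the next bins, to -1.34 and -1.57 at positions 251 to 300, where IGF2BP2 had -3.25 and -3.46. The IGF2BP2 values came from RNA45SN2 alone, with 23 and 21 nt covered at positions 51 to 100, where PTBP1 had 99 and 100 nt over both copies. In RNA45SN2, the 100 nt from 7900 nt past the 45S start had -0.21 and -0.82 in PTBP1 and -3.33 and -3.38 in IGF2BP2. In RNA45SN3 they had 0.56 and 0.46 in PTBP1 and no IGF2BP2 peak.

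The reverse held near the middle of 28S. At positions 1951 to 2000 PTBP1 had -1.32 and -0.88 and IGF2BP2 had 1.95 and 2.53, the largest difference toward IGF2BP2. In the copy RNA45SN2 this stretch covered chr21:8215842-8215903 (28S positions 1955 to 2016), where the best peaks had at least 12994 IP to 11519 input reads and 5552 to 3197 in PTBP1, and at least 118305 to 9859 and 85025 to 4546 in IGF2BP2. In RNA45SN3 it covered chr21:8398870-8398939 (positions 1945 to 2014), with means of -1.27 and -0.85 in PTBP1 and 1.97 and 2.44 in IGF2BP2. Both copies gave the same order with the groups far apart. The copies are near-identical and how reads were shared between them is not given, so they are not separate observations.

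2 further stretches of the mature RNAs stood high in IGF2BP2. At positions 4351 to 4400 of 28S PTBP1 had 0.52 and 0.42 and IGF2BP2 had 2.28 and 2.35. At positions 1301 to 1350 of 18S PTBP1 had -0.06 and -0.06 and IGF2BP2 had 1.74 and 1.52. The bin of 28S had the highest mean of both proteins in that RNA. By contrast, among the bins of 28S with at least 10 nt covered in every library, PTBP1 had its lowest mean at positions 2951 to 3000, with -6.88 and -6.90 in PTBP1 and -5.96 and -6.10 in IGF2BP2, and IGF2BP2 had its lowest at positions 3451 to 3500, with -5.97 and -6.13.

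**Figure D4:**
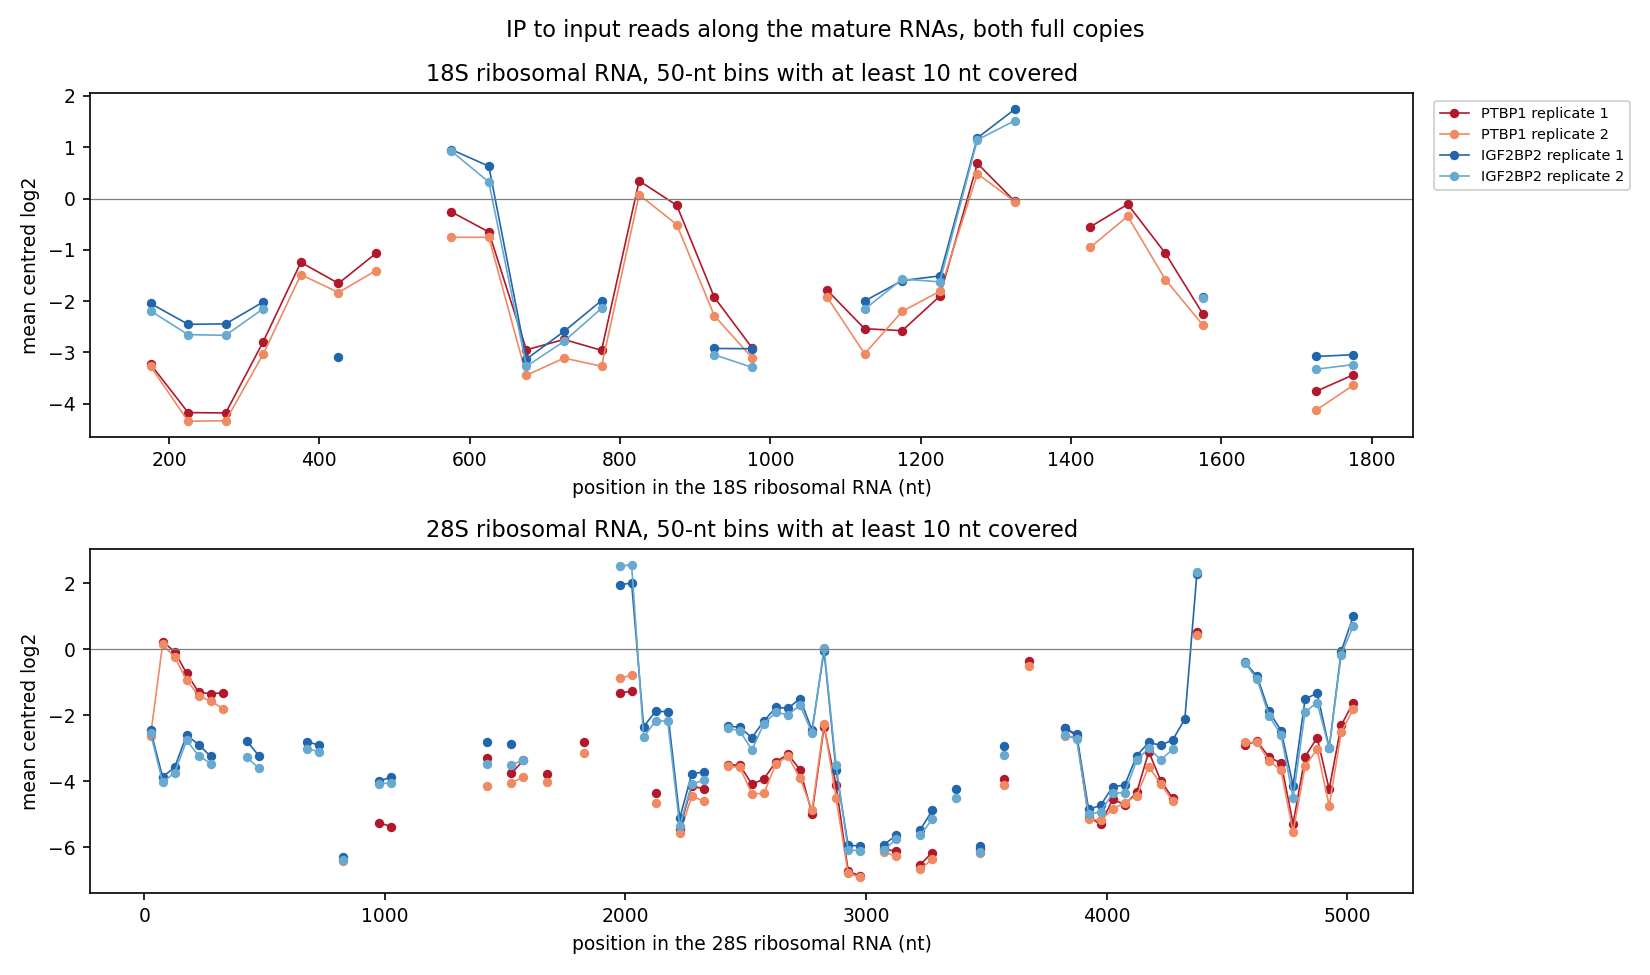
Mean centred log2 of IP to input reads in bins of 50 nt along 18S and 28S ribosomal RNA, RNA45SN2 and RNA45SN3 together, for each library; bins with under 10 nt covered are left out. PTBP1 stands above IGF2BP2 at the 5′ end of 28S (0.23 and 0.15 against -3.86 and -4.02 at positions 51 to 100, IGF2BP2 from RNA45SN2 alone). It stands below IGF2BP2 at positions 1951 to 2000 (-1.32 and -0.88 against 1.95 and 2.53).

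Downstream of the 45S, in the intergenic spacer, PTBP1 had most of its high peaks of the repeat, while IGF2BP2 had few peaks, of which 1 in each replicate lay above the median of its list. In the 10 kb past the 45S end, PTBP1 had 69 and 74 plus-strand peaks with medians of 1.57 and 1.14 (8.89 and 6.60 IP reads per input read), and IGF2BP2 had 16 and 16 with medians of -3.82 and -3.18 (0.212 and 0.331). The PTBP1 medians lay at percentile 94.2 and 91.9 of their lists, and the IGF2BP2 medians at percentile 5.98 and 12.8. These peaks rested on far fewer reads than those in the mature RNAs, with medians of at least 271 and 182.5 IP reads to 35 and 33 input reads in PTBP1, and 7.5 and 5 IP reads to 29 and 16 input reads in IGF2BP2. The highest IGF2BP2 peaks there stood at -0.36 and -0.58, below both PTBP1 medians.

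Stretches at 1 or more on the centred log2 scale in both replicates of a protein were then listed, a threshold chosen after the values were seen. PTBP1 had 24 such stretches over 1659 nt, and IGF2BP2 had 8 over 292 nt. Of the PTBP1 stretches, 12 over 916 nt lay downstream of RNA45SN2 (chr21:8223748-8227213) and 9 over 681 nt downstream of RNA45SN3 (chr21:8406752-8410014). They began 4446 and 4409 nt past the 45S end. None overlapped a gene of the RefSeq table, although the deposited lists name their peaks LOC100507412 or RNA28SN5. The next gene, the pseudogene CDC27P9 or CDC27P10, began 12020 and 7645 nt further on. The other 3 PTBP1 stretches, of 19 to 22 nt, lay on the minus strand of 18S. None of the IGF2BP2 stretches lay downstream: 4 were in 28S and 4 in 18S. Of those in 18S, 1 in RNA45SN1 and 1 in RNA45SN2 lay on the minus strand. The latter, of 16 nt, had best peaks of at least 8 IP to 1 input reads and 12 to 1 in IGF2BP2.

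The downstream stretch with the highest mean was found in both copies. At chr21:8225278-8225395, 5976 to 6093 nt past the end of RNA45SN2, PTBP1 averaged 3.11 and 3.28, with best peaks of at least 1199 IP to 41 input reads and 1019 to 35, and IGF2BP2 had no peak. At chr21:8408270-8408397, 5927 to 6054 nt past the end of RNA45SN3, PTBP1 averaged 3.05 and 3.45, with best peaks of at least 1327 to 49 and 964 to 29 reads, and IGF2BP2 had no peak. A second stretch of 171 and 170 nt (chr21:8226432-8226602 and chr21:8409431-8409600) averaged 2.57 and 2.09 in PTBP1 at RNA45SN2 and 2.54 and 2.23 at RNA45SN3, again with no IGF2BP2 peak. Peaks of both proteins met at chr21:8227160-8227213, with 1.43 and 1.29 in PTBP1 and -3.03 and -2.61 in IGF2BP2. They also met at chr21:8223748-8223778, chr21:8223797-8223878, chr21:8226138-8226224 and chr21:8406752-8406770, where the IGF2BP2 means ran from -4.22 to -2.

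**Figure D5:**
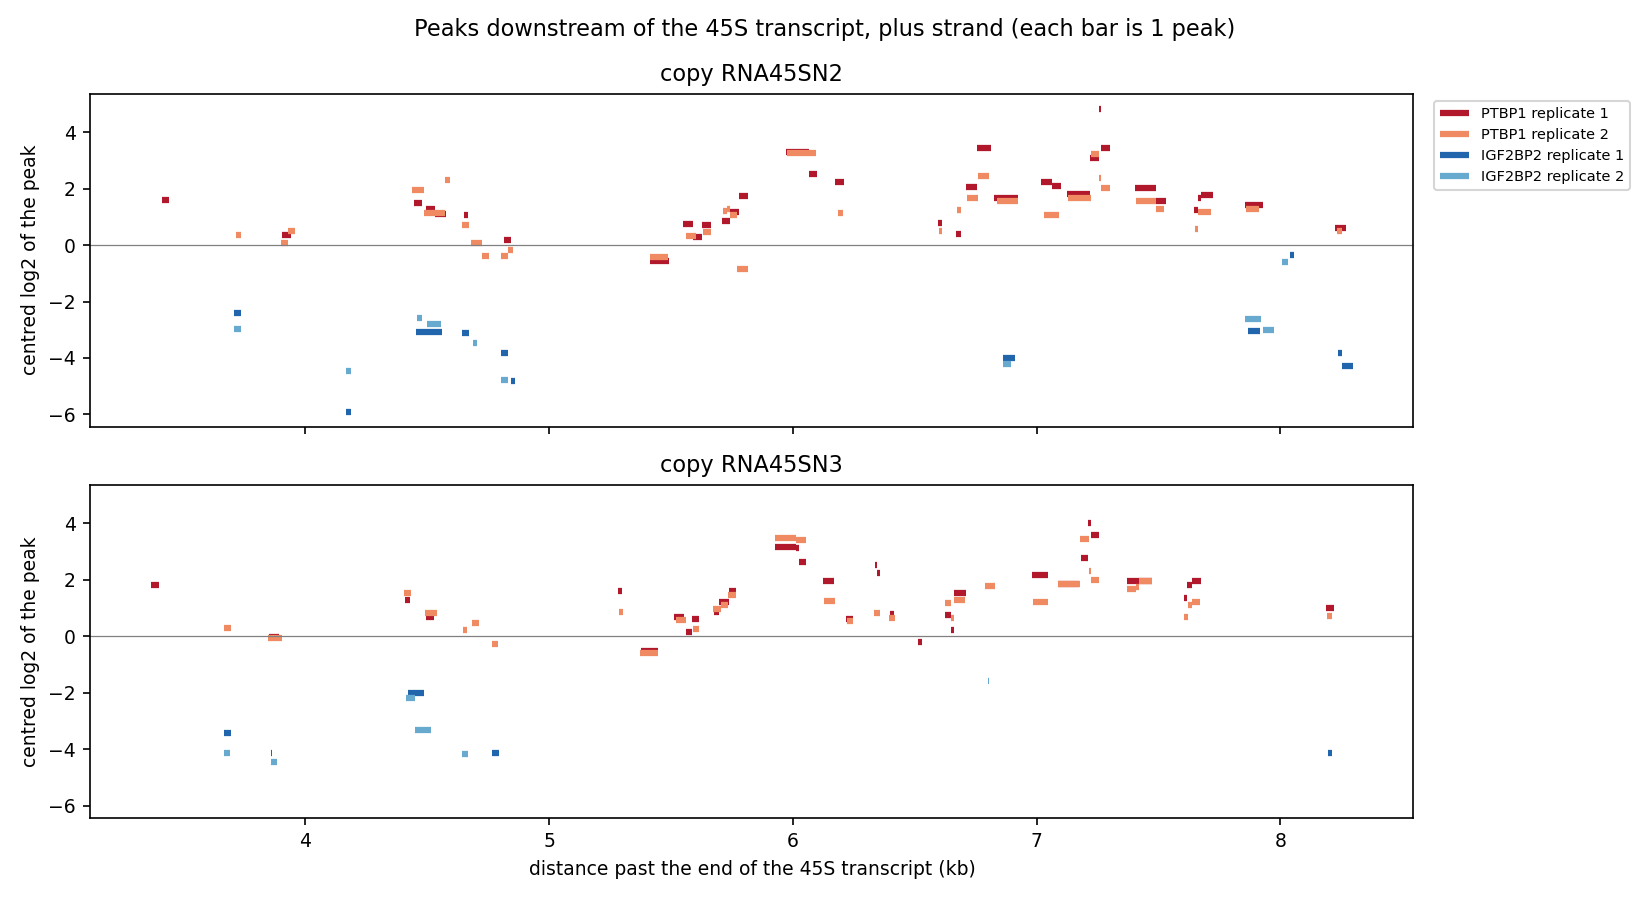
Centred log2 of IP to input reads of each plus-strand peak downstream of RNA45SN2 (top) and RNA45SN3 (bottom), against the distance past the 45S end in kb, where each bar is 1 peak drawn at its length. Most PTBP1 bars (medians 1.57 and 1.14) stand above 0 and all IGF2BP2 bars (medians -3.82 and -3.18) below it, in both copies.

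Upstream of the 45S the peaks were few, 6 and 5 in PTBP1 and 6 and 3 in IGF2BP2. Among them were those over the MIR6724 hairpins, whose mature product is printed above. Over MIR6724-1 (chr21:8205315-8205406) PTBP1 had peaks of at least 291 IP to 43 input reads (1.17) and 221 to 54 (0.45), and IGF2BP2 had 46 to 65 (-2.08) and 23 to 38 (-2.31). Over MIR6724-3 (chr21:8388362-8388453) PTBP1 had 1.07 and 0.48, IGF2BP2 replicate 1 had -2.31, and IGF2BP2 replicate 2 had no peak. Over MIR6724-2, in the partial copy, the peaks on the mature sequence stood at 0.30 and 0.04 in PTBP1 and at -2.41 and -2.53 in IGF2BP2. Over MIR6724-4, whose peaks the lists name MIR6724-1 and which are not counted among the ribosomal peaks, they stood at 0.35 and -0.46 in PTBP1 and at -2.16 and -2.53 in IGF2BP2. At each of the 4 hairpins each PTBP1 value on the mature sequence lay above each IGF2BP2 value. The PTBP1 peaks covered all 23 nt of it, except 19 nt at MIR6724-4 in replicate 2. In replicate 1 PTBP1 had a further peak of 3 nt, at chr21:8383827-8383829, with at least 292 IP reads to 1 input read (6.60), which had no counterpart in replicate 2.

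The hairpin MIR3648-1 (chr21:8208473-8208652), within the 5′ ETS, was unlike them. It carried 5 and 5 peaks in PTBP1, between -5.15 and -4.94, and 3 and 3 in IGF2BP2, between -5.73 and -4.97. All of these had a deposited −log10 p of 0. Both proteins thus had far fewer IP than input reads over this hairpin, with the ranges of the 2 proteins overlapping.

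On the minus strand, opposite to the annotated genes, the 18S of RNA45SN1 held 32 and 29 peaks in PTBP1 and 24 and 22 in IGF2BP2, while no plus-strand peak was found in that 18S. They lay at positions 764 to 1587 in both PTBP1 lists, and at 763 to 1587 and 763 to 1588 in the IGF2BP2 lists. Their medians were -1.85 and -2.03 in PTBP1 and -1.71 and -1.79 in IGF2BP2, each less than 0.5 from the plus-strand 18S median of the same library in the other copies, with medians of at least 61449.5 and 48912 IP reads in PTBP1 and 44300 and 43531 in IGF2BP2. IGF2BP2 averaged 1.94 and 1.83 at positions 1293 to 1323 on that strand (chr21:8438168-8438198), and 1.38 and 1.45 at positions 1281 to 1323 on the plus strand of RNA45SN3. Minus-strand peaks of the other copies were fewer. In the 18S of RNA45SN2 there were 8 and 6 in PTBP1, with medians of 2.45 and 1.33 and of at least 65 and 73.5 IP reads, and 6 and 5 in IGF2BP2, with medians of 0.37 and 0.12 and of at least 10.5 and 12 IP reads. The partial copy held 11 and 10 in PTBP1 (1.56 and 0.64) and 8 and 7 in IGF2BP2 (-0.51 and -0.93), and the 18S of RNA45SN3 held 2 and 3 in PTBP1 (-1.11 and -2.39) and 3 and 2 in IGF2BP2 (-3.12 and -2.66). In RNA45SN2 and the partial copy these peaks stood higher than in the 18S of RNA45SN1 in all 4 libraries, on far fewer reads. The deposited lists thus gave the same stretch of 18S on opposite strands in different copies, and the strand of single copies is uncertain for that reason.

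On the scaffolds no value recurred, so the ratios could not be centred, and they are given relative to the median of the scaffold. RNA5-8SN1 peaks on GL000220v1 stood 8.03 and 7.37 above that median in PTBP1 replicate 1, were absent from PTBP1 replicate 2, and stood 5.09 and 4.04 above it in IGF2BP2 replicates 1 and 2. On KI270733v1 the highest stood 2.22 and 2.15 above the median in PTBP1 and 1.23 and 2.12 in IGF2BP2. Of these highest values each in PTBP1 lay above each in IGF2BP2, the nearest, 2.15 and 2.12, close together. The lowest RNA5-8SN1 peaks there stood at 1.40 and 1.30 in PTBP1 and 0.43 and 0.96 in IGF2BP2, so the ranges of the proteins overlapped.

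Set against 6704 other genes with at least 10 peaks in each library, the repeat was among those with the lowest median ratios, with 4 and 2 genes lower in PTBP1 and 75 and 51 lower in IGF2BP2. The genes most like it over the 4 libraries, by Euclidean distance between the medians, were RAB1A (distance 1.19), JUND (1.34) and KLF2 (1.44). RAB1A, a small GTPase of vesicle traffic, had medians of -2.39 and -2.91 in PTBP1 and -3.06 and -2.77 in IGF2BP2. RNA5S9, a copy of the separate 5S ribosomal RNA genes, had 2 and 2 peaks in PTBP1 with medians of -5.85 and -5.96, and 1 and 2 in IGF2BP2 with -4.33 and -4.52. No peak carried the names of the mitochondrial ribosomal RNAs, MT-RNR1 and MT-RNR2. The lists held 34 and 31 mitochondrial peaks in PTBP1 and 32 and 32 in IGF2BP2, all named MIR12136 or without a gene name. The missing names therefore do not tell whether these RNAs had peaks.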

How the data were processed

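The authors deposited 1 peak list per IP library, and the submitters' processing notes name HISAT2 and hg38. The sources used here give no peak caller, filter or version. Per the file headers, each peak has a deposited −log10 p and a count, which holds log2 ratios of reads as deposited. Positions are given 1-based, and 55, 36, 3 and 3 repeated lines were removed from the PTBP1 and IGF2BP2 lists. The commonest log2 of each chromosome was subtracted; an exact binomial test of 3 against 1 reads gave its deposited −log10 p on 24 of 24 chromosomes in each library. Reads in lowest terms were recovered with denominators up to 1000000 and a tolerance of 2e-14, tested on simulated data. Parts of the repeat come from the RefSeq table of GRCh38.p14; peaks were assigned by their midpoint, up to 6 kb before and 10 kb past the 45S. Density was fitted with limma 3.58.1 (R 4.3.3) after adding a pseudocount of 0.5. Members and lists were chosen with earlier results of these data known. The genes named follow a fixed rule: all members, the 3 most alike genes, the ribosome biogenesis genes past the threshold and other ribosomal RNA genes. Alternatives are in the closing section.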

Additional observations from a re-analysis of the deposited data

Results flagged for a closer look

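The peaks downstream of the 45S end lay on opposite sides of the list medians in the 2 proteins. Their median centred log2 stood above the list median by a mean of 1.77 in PTBP1, with both replicates above, and at -2.45 relative to it in IGF2BP2, with both replicates below. The difference between the proteins was 4.22. It was not tested, since these peaks were picked out after their values were seen.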

How the results depend on the processing

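Of 15145 genes, 3782 differed in peak density between PTBP1 and IGF2BP2. With enriched peaks alone (log2 and −log10 p of at least 3) 95 genes were left to test and 6 differed; since the ratios chose the ribosomal genes, no call of theirs is read from those peaks. Leaving out 1 library at a time gave 2267 to 6388 genes; the lone library is then assumed to vary like the others. LOC100507412 and RNA28SN5 kept their direction and their call without each library, with a pseudocount of 2, with TMM scaling, without the filter and by nucleotides covered. Counted by nucleotides, RNA45SN1 passed too (-1.25, limma adjusted p = 0.00621). The longer peaks of the PTBP1 lists enter that scale. Replicates share a number but no stated batch, and their deviations were uncorrelated (r = -0.0016); with a replicate block 4763 genes differed and no call of the 4 genes changed. The difference in the share of the list was 0.0418 percentage points with enriched peaks, the reverse of the main -0.066, and -0.0684 to -0.0637 without 1 library. The mean share of peaks found again in PTBP1 was 96.0% when 50% of the shorter peak had to overlap and 60.9% among enriched peaks, where IGF2BP2 replicate 2 had no peak and IGF2BP2 no value. This share needs both replicates, so none was left out. The mean of the medians in PTBP1 was -2.77 with the chromosome's median subtracted and -2.70 with each nucleotide counted once, against -3.35, and in IGF2BP2 it was -1.72 with the chromosome's median subtracted, against -3.30. Without 1 replicate it was -3.49 to -3.21 in PTBP1 and -3.40 to -3.20 in IGF2BP2. The downstream medians stayed within the replicate spread in each copy alone, an alternative added after seeing the data.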
